A study of Mus musculus with 4 samples.

Results

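Retinoid metabolism and binding genes were followed across mouse testis libraries: Rdh10, Rdh11, Aldh1a1, Aldh1a7, Aldh1a2, Aldh1a3, Rbp4, Crabp1 and Cyp26b1. They were taken by gene symbol from the deposited table of 28595 genes, and all 9 had a row. Of these, 6 passed the filter on low counts and were tested among 5182 genes, while Aldh1a3, Rbp4 and Rdh10 had too few counts and are given as counts. Retinol is carried in blood by Rbp4, oxidised to retinal by retinol dehydrogenases, and oxidised further to retinoic acid by retinal dehydrogenases of the Aldh1a family. Retinoic acid binds nuclear receptors, is held in the cytoplasm by proteins such as Crabp1, and is broken down by Cyp26 enzymes. In the testis it is known as the signal for spermatogonial differentiation and entry into meiosis.

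The counts come from photo-isolation chemistry (PIC) on 10 µm testis sections, in which ultraviolet light releases caged primers so that only the lit area gives a library. The 4 groups were H3t KO testis lit over the entire section, wild-type testis lit over the entire section, H3t KO testis lit only at Leydig cells, and wild-type testis lit only at Leydig cells. H3t encodes a testis histone H3 variant and was deleted in the mice, with no Cre driver or transgene named, and the series asks about Leydig cells in testes whose spermatogenesis is disrupted. The titles of the wild-type groups call them young and the knockout titles give no age. Each group was deposited as 1 sample with 3 libraries, and the labels do not tie these to separate animals. The p-values therefore cover spread among libraries that may be technical, and since the deposited barcode list puts the 3 of each group under 1 shared library name, a group cannot be told apart from that shared library.

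Library totals were 321771 to 475764 counts in knockout sections and 247539 to 566527 in wild-type sections, against 15208 to 53003 in knockout and 5947 to 54882 in wild-type Leydig-targeted libraries. The deleted gene, listed as H3f4 (ENSMUSG00000080152) and annotated as an unprocessed pseudogene, had 1 count in a wild-type section library and 0 in the other 11 libraries, which is too few to check a label. Leydig markers, of which 11 of 12 entries were in the table and all 11 had counts in each group, held 3.45% to 4.19% of counts in knockout sections and 0.316% to 0.629% in wild-type sections. In Leydig-targeted libraries they held 6.20% to 7.50% in knockouts and 1.25% to 2.81% in wild type. Spermatid markers, 12 of 12 in the table, held 0.0051% to 0.0752% in knockout sections and 2.61% to 4.96% in wild-type sections, and 0% to 0.0151% in knockout and 1.11% to 2.54% in wild-type Leydig-targeted libraries. Wild-type Leydig-targeted libraries thus still held germ cell transcripts. Wild-type Leydig-targeted replicate 3 stood apart with 5947 counts, a normalisation factor of 2.28 and 8.76% mitochondrial counts, so the main results of Leydig-targeted libraries are also given without it.

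Aldh1a1 and Aldh1a7 lie side by side on chromosome 19 (GRCm38). Aldh1a1 (ENSMUSG00000053279) spans 20492715 to 20643465 on the plus strand, and Aldh1a7 (ENSMUSG00000024747), a rodent neighbour and close relative of it, spans 20692953 to 20727562 on the minus strand. The genes end 49487 bases apart with 0 annotated genes between them. Their RefSeq promoter windows, 300 bases around the start, are shown because both genes were higher in knockout sections and the windows are near copies in their later part. RefSeq gives Aldh1a1 a further window at chr19:20492333-20492632, near the start of the annotated locus, which holds no octamer of the kind described here and is not shown. Capitals mark runs of at least 20 bases that both windows hold.
Aldh1a1, chr19:20601718-20602017, plus strand, GRCm38.p6: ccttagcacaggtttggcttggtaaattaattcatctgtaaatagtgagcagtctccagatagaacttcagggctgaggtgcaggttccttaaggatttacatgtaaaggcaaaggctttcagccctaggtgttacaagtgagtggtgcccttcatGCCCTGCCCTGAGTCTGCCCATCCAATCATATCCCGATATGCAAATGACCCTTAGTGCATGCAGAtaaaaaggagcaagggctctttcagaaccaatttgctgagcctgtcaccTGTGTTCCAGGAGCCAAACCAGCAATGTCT
Aldh1a7, chr19:20727507-20727806, minus strand, GRCm38.p6: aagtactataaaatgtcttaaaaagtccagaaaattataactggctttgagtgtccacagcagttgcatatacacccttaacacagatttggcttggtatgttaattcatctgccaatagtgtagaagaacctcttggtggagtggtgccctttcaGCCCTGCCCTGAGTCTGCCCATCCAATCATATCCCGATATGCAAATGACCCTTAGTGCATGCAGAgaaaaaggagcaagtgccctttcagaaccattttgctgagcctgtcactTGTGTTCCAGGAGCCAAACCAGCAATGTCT
The longest shared run was 65 bases, lay 94 to 30 bases before the start in both genes, and occurred in 0 other windows of the RefSeq table. Over the 224 bases that could be aligned, 213 were identical (95.1%). The run holds ATGCAAAT, the octamer that POU factors are known to bind, starting 56 bases before the start. This motif was chosen after the windows had been read, was searched on both strands, and occurred in 1.74% of 32851 promoter windows of 300 bases. It was also present in the Aldh1a2 window, so that 3 of the members' 10 windows held it.

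The promoter table held windows for 7 of the members. The retinoic acid receptor half-site AGGTCA, searched on both strands, occurred in 16.3% of all windows and in 1 of the members' 10, that of Rdh11 at chr12:79190912-79191211 on the minus strand. The longer element CAAGGTCA, bound by the steroidogenic factor Nr5a1 and overlapping the half-site, occurred in 1.56% of all windows. Receptor direct repeats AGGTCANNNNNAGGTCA and AGGTCANNAGGTCA, which also contain the half-site, each occurred in 0.00913%. None of these 3 was in a member's window, which says only that these letters were not in these 300 bases.

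The first question of the design was how knockout sections differ from wild-type sections. Aldh1a1, Aldh1a7 and Cyp26b1, an Aldh1a pair and a retinoic acid hydroxylase, were called higher in knockout sections, and Rdh11, a retinal reductase, was called lower. Aldh1a2 and Crabp1 were not called. Of all genes tested, 22.6% were called higher and 39.1% lower, and the median log2 fold change was -0.35, so changes are best read against that shift. The members tested had a median of 0.93, which is only a description because passing the filter depends on the group where a gene is high. Calls are at an adjusted p under 0.05 in edgeR's quasi-likelihood test with Benjamini-Hochberg adjustment over all genes tested. Scaling moved the median of all genes, which was 0.225 with library size alone and -2.74 when libraries were scaled to their Leydig marker counts. Under the last scaling the signs of Aldh1a1, Aldh1a7 and Cyp26b1 turned negative without a call, while Rdh11 was still called lower.

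**Figure D1:**
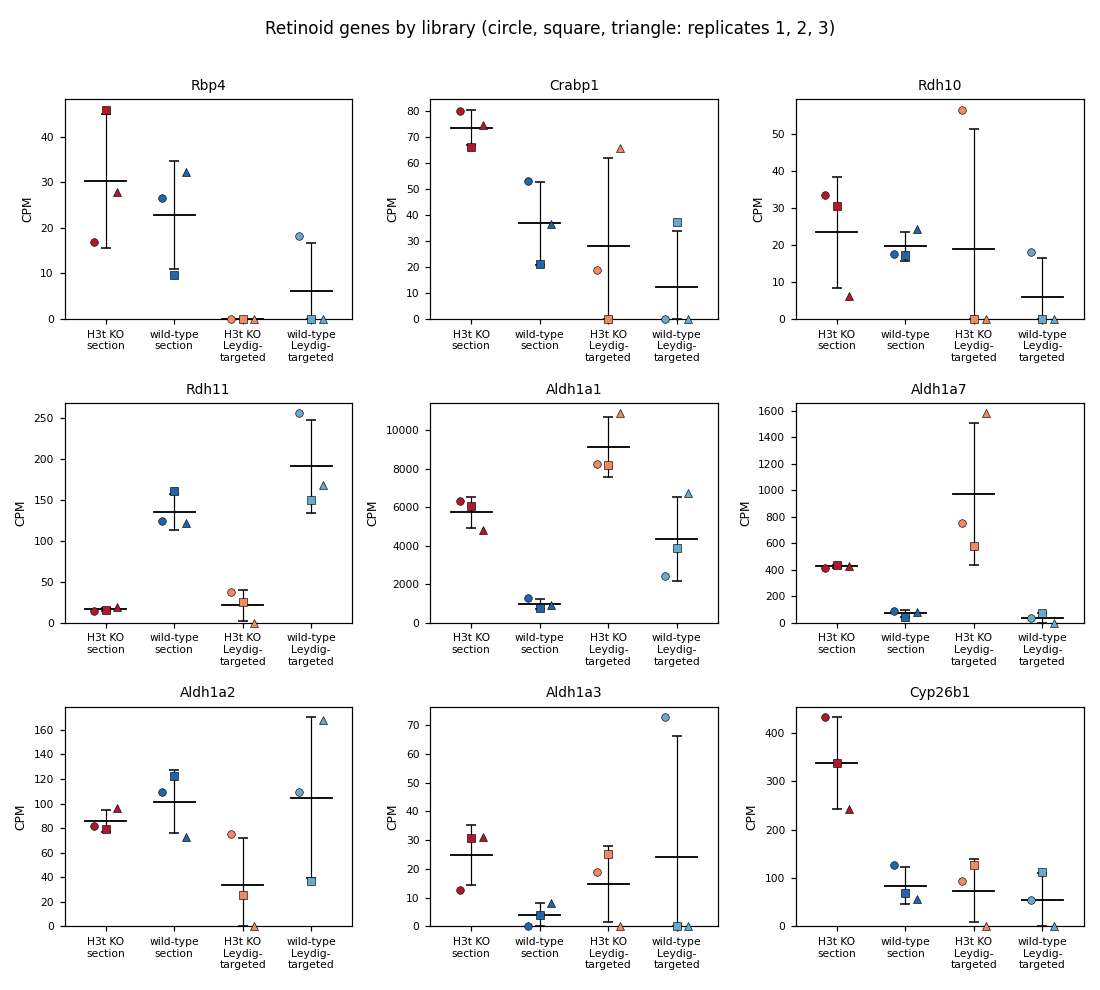
Level of each of the 9 genes in CPM (linear axis from 0) in every library, by group. Circles, squares and triangles are replicates 1, 2 and 3, lines are means and bars are SD (n = 3), cut at 0 where the SD passes it. The knockout section libraries lie above the wild-type section libraries for Aldh1a1, Aldh1a7, Aldh1a3, Crabp1 and Cyp26b1 and below them for Rdh11. How often all genes tested lie apart in this way was not counted.

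Retinol dehydrogenases come first in the pathway. Levels are given as CPM, a gene's count scaled to the library total. Rdh11 (ENSMUSG00000066441, chromosome 12, 79174337 to 79192293, minus strand), an enzyme known for reducing retinal, had 14.7, 15.3 and 18.6 CPM in the 3 knockout sections, against 123.6, 160.7 and 121.2 CPM in wild-type sections. Every knockout library lay below every wild-type library. The log2 fold change was -3.65 ± 0.51 (SE, edgeR, adjusted p = 3.6e-12). In Leydig-targeted libraries Rdh11 had 2, 1 and 0 counts in knockouts, against 14, 4 and 1 in wild type. The log2 fold change there was -3.09 ± 0.93 (edgeR, adjusted p = 0.0061), and the ratio of pooled CPM, 0.128, had a counting interval of 0.0243 to 0.436. The call held without the shallowest library (adjusted p = 0.0014) and was lost without wild-type replicate 1 (-2.63, adjusted p = 0.14, or -1.85 and 0.32 with the filter rerun), without knockout replicate 1 when the filter was rerun (-3.38, adjusted p = 0.072), and with no filter on low counts (-2.46, adjusted p = 0.16). Rdh11 did not pass the filter in the fit of the 6 Leydig-targeted libraries alone. Spermatocyte markers, 9 of 9 in the table, followed the same groups, with 0.0176% to 0.0277% of counts in knockout sections against 0.740% to 0.887% in wild-type sections, and 0.0131% to 0.0202% in knockout against 0.370% to 0.754% in wild-type Leydig-targeted libraries. Pgk2, Piwil1, Ldhc, Tdrd6 and Sycp3 were at 0 in the knockout Leydig-targeted libraries. Their part in the result was not tested, and in bulk libraries fewer cells of a type and less RNA per cell cannot be told apart.

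Rdh10 (ENSMUSG00000025921, chromosome 1, 16105774 to 16133734, plus strand), the enzyme that makes most retinal from retinol in mouse embryos, was too low to test. It had 16, 12 and 2 counts in knockout sections and 10, 9 and 6 in wild-type sections, and the groups overlapped. The pooled CPM ratio of 1.35 had an interval of 0.767 to 2.39. In Leydig-targeted libraries it had 3, 0 and 0 counts in knockouts and 1, 0 and 0 in wild type, so a difference was not detectable at this depth. A fit of the 6 section libraries alone, which kept 7907 genes and called 30.2% higher and 36% lower, tested 8 of the members and called 3 higher and 1 lower. It gave Rdh10 a log2 fold change of 0.12 ± 0.46 (edgeR, adjusted p = 0.83).

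The Aldh1a genes differed among themselves. Their counts do not show whether a given member oxidises retinal. Aldh1a1, the enzyme known to oxidise retinal to retinoic acid in many adult tissues, had 6329, 6069 and 4811 CPM in knockout sections, against 1280, 773 and 896.8 CPM in wild-type sections. The groups did not overlap. The log2 fold change was 1.98 ± 0.46, or 3.94-fold (edgeR, adjusted p = 6.0e-05). In Leydig-targeted libraries Aldh1a1 had 8226, 8214 and 10915 CPM in knockouts, against 2423, 3873 and 6726 CPM in wild type. Again every knockout library was higher, with a log2 fold change of 1.22 ± 0.47 (edgeR, adjusted p = 0.035). The call was lost without the shallowest library (0.89, adjusted p = 0.15), without wild-type replicate 1 (0.77, adjusted p = 0.36), without any 1 of the 3 knockout Leydig-targeted libraries (adjusted p = 0.057 to 0.27) and in the fit of the 6 Leydig-targeted libraries alone (0.74, adjusted p = 0.11). Leaving out section replicate 1 of either genotype also ended it (adjusted p = 0.051 and 0.12). With the filter rerun, it was lost too without knockout section replicate 2 (0.78, adjusted p = 0.18) or any 1 of the 3 wild-type sections (adjusted p = 0.13 to 0.37).

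Aldh1a1 moved with the Leydig markers. In knockout sections, markers of several other somatic cell types were higher too, as given with Cyp26b1 below. Set against the summed counts of the Leydig marker list, Aldh1a1 stood at 15.6%, 17.6% and 11.5% in knockout sections and at 20.4%, 24.5% and 14.4% in wild-type sections. The means were 14.9% ± 3.12 and 19.7% ± 5.09 (SD, n = 3 each), and the groups overlapped (2-sided exact permutation test, p = 0.3). Taken as pairs by replicate number, knockout was lower in 3 of 3 pairs, by -4.72, -6.91 and -2.89 percentage points (exact sign-flip test, p = 0.25, the smallest that 3 pairs can give). In Leydig-targeted libraries the figures were 13.3%, 12.03% and 14.6% in knockouts, against 19.4%, 15.0% and 23.9% in wild type. Those groups did not overlap, with means of 13.3% ± 1.26 and 19.4% ± 4.50 (SD, n = 3 each), and the exact permutation p of 0.1 is the smallest that 3 libraries against 3 can give. With only the steroid pathway genes of the list as the base, the knockout Leydig-targeted values were 24.7%, 20.8% and 34.0% and the wild-type values 29.4%, 27.0% and 83.3%, the last from the shallowest library, and the groups overlapped. On that base, sections stood at 30.3%, 39.1% and 24.0% in knockouts, against 31.3%, 40.3% and 23.2% in wild type, and overlapped. Scaled to Leydig marker counts, the log2 fold change of Aldh1a1 was -0.41 in sections (edgeR, adjusted p = 0.54) and -0.54 in Leydig-targeted libraries (adjusted p = 0.51). Per count of the whole Leydig list, then, the knockout means lay below the wild-type means in both regions without a call. With the steroid genes alone as the base, the section values of the genotypes were close. The part of the Leydig marker share in the level per library was not tested.

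**Figure D2:**
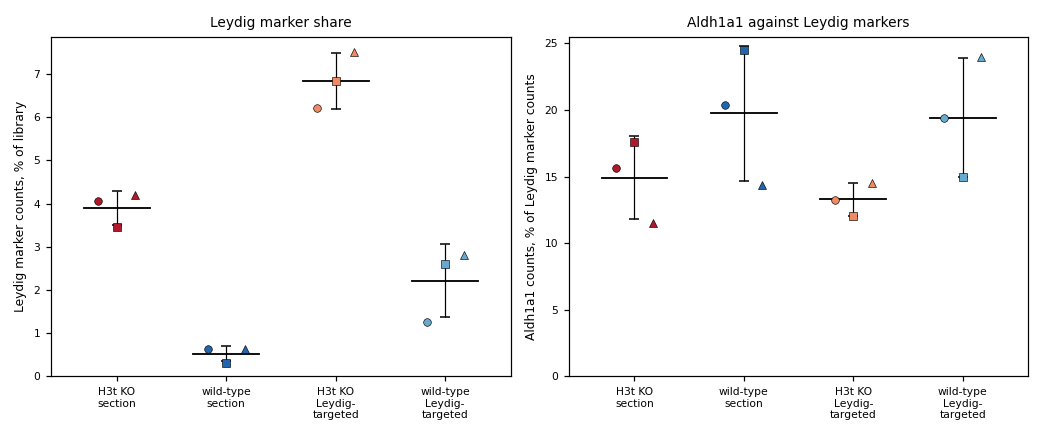
Left, counts of the Leydig marker list as a percent of each library. Right, Aldh1a1 counts as a percent of the Leydig marker counts. Markers are replicates 1, 2 and 3 (circle, square, triangle), lines are means and bars SD (n = 3). Leydig markers were higher in both knockout groups (left), where the knockout values of Aldh1a1 against those markers averaged 14.9% and 13.3%, compared with 19.7% and 19.4% in wild type (right).

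Aldh1a7 had 409.9, 436 and 425.8 CPM in knockout sections, against 90.0, 42.1 and 80.8 CPM in wild-type sections. The groups did not overlap, and the log2 fold change was 2.03 ± 0.47 (edgeR, adjusted p = 5.5e-05). In Leydig-targeted libraries it had 40, 23 and 24 counts in knockouts, against 2, 2 and 0 in wild type, which is 754.7, 579.5 and 1578 CPM against 36.4, 74.5 and 0 CPM. Every knockout library lay above every wild-type library. The log2 fold change was 4.01 ± 0.80 (edgeR, adjusted p = 2.3e-05), and the ratio of pooled CPM, 17.7, had a counting interval of 6.66 to 66.3. Of all genes tested, 7.55% were called higher and 20.9% lower in knockout Leydig-targeted libraries, where Aldh1a1 and Aldh1a7 were called higher and Rdh11 lower among the 6 members tested. Aldh1a7 was called in both genotype comparisons whichever of the 12 libraries was left out, and without the shallowest library it stood at 3.48 ± 0.76 (adjusted p = 0.00014) in Leydig-targeted libraries. Unlike Aldh1a1, it was still called higher in those libraries when they were scaled to Leydig marker counts (2.41, adjusted p = 0.021), while in sections that scaling gave -0.31 (adjusted p = 0.62). The difference between the genotype effects in the 2 regions was 1.98 ± 1.01 and was not called (edgeR interaction, adjusted p = 0.49).

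Aldh1a7 made up 6.76% of the 7442 counts of Aldh1a1 and Aldh1a7 together in knockout sections (exact 95% interval 6.20% to 7.35%) and 6.44% of 1444 in wild-type sections (5.23% to 7.83%). In Leydig-targeted libraries it made up 87 of 1015 counts in knockouts, or 8.57% (6.92% to 10.5%), and 4 of 281 in wild type, or 1.42% (0.389% to 3.604%). By library the share was 8.40%, 6.59% and 12.6% in knockout and 1.48%, 1.89% and 0% in wild-type Leydig-targeted libraries, where 3 counts of the 40 in the last would be 7.5%. These groups did not overlap (exact permutation p = 0.1, the smallest possible). Wild-type Leydig-targeted libraries also lay below all wild-type sections, at 6.57%, 5.16% and 8.26% (exact permutation p = 0.1, the smallest possible). In sections the genotypes overlapped (exact permutation p = 0.9). The intervals cover counting error only.

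**Figure D3:**
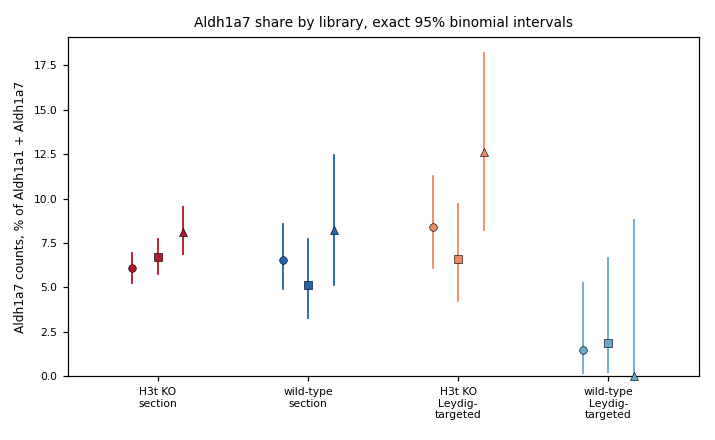
Aldh1a7 counts as a percent of Aldh1a1 plus Aldh1a7 counts in each library, with exact 95% binomial intervals (bars), by group, with replicates 1, 2 and 3 as circle, square and triangle. The 3 wild-type Leydig-targeted libraries sit between 0% and 1.89%, and the other 9 libraries between 5.16% and 12.6%.

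Reads could be shared between such similar genes. The transcripts are identical over 89.9% of 2035 aligned bases, and over 84.6% of the aligned part of their last 300 bases. Of 2017 windows of 50 bases in the Aldh1a7 transcript, 151 (7.49%) also occur in Aldh1a1, but 0 of the 251 windows in its last 300 bases do. The sources used here do not say how reads matching both genes were counted, and both values carry that uncertainty. The Aldh1a1 locus also overlaps the antisense gene C730002L08Rik, which had 0 to 2 counts per library, and strand use in the counting is not stated. Processed pseudogenes on the opposite strand overlap the Aldh1a1 locus (Gm6684) and the Aldh1a2 locus (Gm48124).

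Aldh1a2 (ENSMUSG00000013584, chromosome 9, 71215789 to 71296243, plus strand), known as the main source of retinoic acid in the mouse embryo and a germ cell enzyme in the testis, did not follow Aldh1a1. It had 82.0, 79.0 and 96.3 CPM in knockout sections, against 109.4, 122.5 and 72.7 CPM in wild-type sections. The groups overlapped, with a log2 fold change of -0.88 ± 0.42 that was not called (edgeR, adjusted p = 0.061). DESeq2 called it lower (-0.94, adjusted p = 0.026), as did edgeR after scaling to Leydig marker counts (-3.34, adjusted p = 1.7e-07). In Leydig-targeted libraries it had 4, 1 and 0 counts in knockouts and 6, 1 and 1 in wild type, and the difference was not called (-1.19 ± 0.99, edgeR adjusted p = 0.39, and -1.43 without the shallowest library). Scaled to Leydig marker counts it was called lower there too (-2.91, adjusted p = 0.016). Under that scaling the median of all genes tested was -2.74 in sections and -1.955 in Leydig-targeted libraries, and nearly all calls were lower.

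Aldh1a3 (ENSMUSG00000015134, chromosome 7, 66390890 to 66427517, minus strand), a retinal dehydrogenase known from the developing eye and nose, was too low for the filter. It had 6, 12 and 10 counts in knockout sections, against 0, 2 and 2 in wild-type sections. Its CPM did not overlap between the groups, and the pooled ratio of 7.87 had a counting interval of 2.75 to 30.9. With no filter on low counts the log2 fold change was 2.52 ± 0.76 (edgeR, adjusted p = 0.0055, among 26389 genes of which 26.7% were called). In Leydig-targeted libraries it had 1, 1 and 0 counts in knockouts and 4, 0 and 0 in wild type, which cannot show a difference at this depth.

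The binding proteins did not reach a call. Crabp1 (ENSMUSG00000032291, chromosome 9, 54764748 to 54773110, plus strand), which holds retinoic acid in the cytoplasm, had 79.9, 66.3 and 74.6 CPM in knockout sections, against 53.0, 21.1 and 36.4 CPM in wild-type sections. The libraries did not overlap, yet the log2 fold change of 0.44 ± 0.48 was within its error (edgeR, adjusted p = 0.43). With library size alone as the scaling it was 0.98 (adjusted p = 0.043). The TMM factors were 0.975 to 1.05 in knockout sections and 0.567 to 0.772 in wild-type sections. Scaled to Leydig markers it was called lower (-1.90, adjusted p = 5.7e-04), so its direction depends on the scaling. Only 1, 0 and 1 counts in knockout and 0, 1 and 0 in wild-type Leydig-targeted libraries were Crabp1, with no call (0.46 ± 1.93, edgeR adjusted p = 0.89, and 0.02 without the shallowest library). Rbp4 (ENSMUSG00000024990, chromosome 19, 38116629 to 38125281, minus strand), the retinol carrier of blood, had 8, 18 and 9 counts in knockout sections and 15, 5 and 8 in wild-type sections. The groups overlapped, and the section-only fit gave 0.22 ± 0.47 (edgeR, adjusted p = 0.69). Rbp4 had 0 counts in all 3 knockout Leydig-targeted libraries, which allows up to 27.8 CPM, and 1, 0 and 0 in wild type.

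Cyp26b1 (ENSMUSG00000063415, chromosome 6, 84571414 to 84593908, minus strand), which clears retinoic acid and is known to keep it from germ cells in the fetal mouse testis, had 433, 339 and 242.4 CPM in knockout sections, against 127.1, 68.9 and 56.6 CPM in wild-type sections. Every knockout section lay above every wild-type section. The log2 fold change was 1.41 ± 0.44, or 2.66-fold (edgeR, adjusted p = 0.0033). The call was lost by a small margin without wild-type section replicate 3 (1.22, adjusted p = 0.053). Markers of several somatic cell types moved with it. Sertoli markers, 15 of 15 in the table, held 1.58% to 1.76% of counts in knockout sections and 0.337% to 0.653% in wild-type sections, and peritubular myoid markers, 7 of 7, held 0.190% to 0.237% in knockout and 0.0553% to 0.117% in wild-type sections. Macrophage markers, 11 of 11, held 0.146% to 0.343% in knockout and 0.0207% to 0.0496% in wild-type sections, stromal markers, 7 of 7, held 0.717% to 0.753% in knockout and 0.155% to 0.267% in wild-type sections, and the Leydig shares are given above. Their part in the result was not tested. In Leydig-targeted libraries Cyp26b1 had 5, 5 and 0 counts in knockouts and 3, 3 and 0 in wild type, with no call (0.19 ± 0.97, edgeR adjusted p = 0.91, and -0.29 without the shallowest library). Sertoli markers held 0.579% to 1.01% of counts in those knockout libraries and 0.219% to 0.419% in the wild-type ones.

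**Figure D4:**
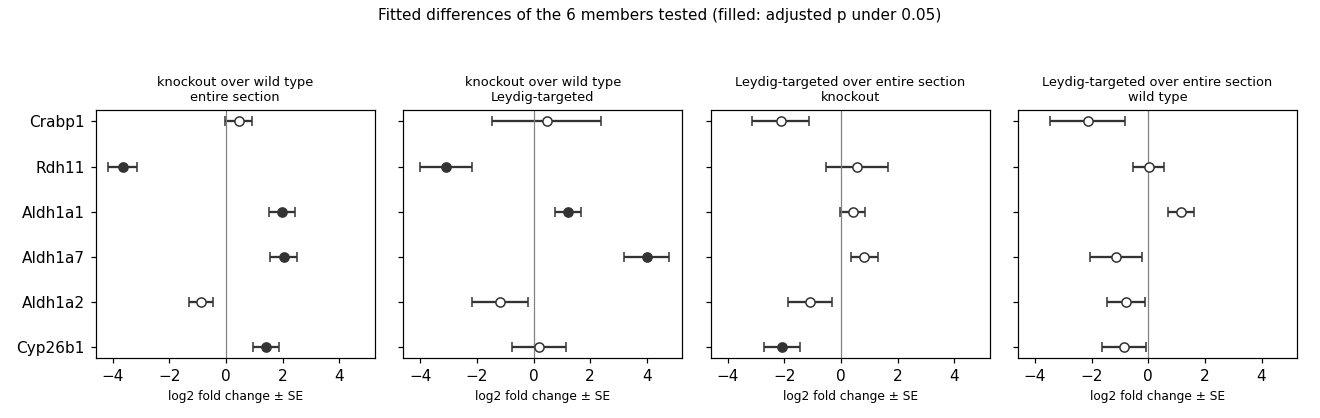
Log2 fold change with SE for the 6 genes tested, in the 2 genotype comparisons (left) and the 2 region comparisons (right), from edgeR's fit of all 12 libraries. Filled points have an adjusted p under 0.05. Aldh1a1 and Aldh1a7 lie right of 0 and Rdh11 left of 0 in both genotype comparisons, and Cyp26b1 is the filled point left of 0 in the knockout region comparison.

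The region comparisons ask what differs when the light is limited to Leydig cells. In knockouts, 1.91% of genes were called higher and 3.53% lower in Leydig-targeted libraries than in sections, and of the 6 members tested Cyp26b1 alone was called, lower by -2.08 ± 0.63 on the log2 scale (edgeR, adjusted p = 0.026). It had 94.3, 126 and 0 CPM in Leydig-targeted libraries, against 433, 339 and 242.4 CPM in sections, with no overlap. The call was lost without knockout section replicate 1 (adjusted p = 0.14), wild-type section replicate 3 (0.052), or Leydig-targeted knockout replicates 1 (0.11) or 2 (0.064). The Sertoli list held 0.579% to 1.01% of counts in those Leydig-targeted libraries, against 1.58% to 1.76% in the sections, with Fshr at 0 in the Leydig-targeted libraries, and its part in the result was not tested. Every knockout Leydig-targeted library exceeded every knockout section for Aldh1a1 and for Aldh1a7, but the log2 differences of 0.41 ± 0.45 (adjusted p = 0.68) and 0.83 ± 0.47 (adjusted p = 0.32) were not called.

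In wild type, 3.22% of genes were called higher and 12.4% lower in Leydig-targeted libraries than in sections, and 0 of the 6 members tested were called by edgeR, with 1 at an unadjusted p under 0.05. That gene was Aldh1a1, at 2423, 3873 and 6726 CPM in Leydig-targeted libraries against 1280, 773 and 896.8 CPM in sections, with no overlap (1.17 ± 0.46, adjusted p = 0.066). DESeq2 called it higher (1.36, adjusted p = 2.3e-06), as did edgeR without the shallowest library (1.52 ± 0.45, adjusted p = 0.019) and with library size alone as the scaling (2.06, adjusted p = 1.9e-04). Aldh1a7 was not called, at -1.14 ± 0.91 (adjusted p = 0.40, and -0.61 without the shallowest library). Scaled to Leydig marker counts, 4 of the 6 were called lower by edgeR in wild-type Leydig-targeted libraries. That scaling called 3028 of the 5182 genes tested, with only 1.88% of those calls higher and a median of -1.98. Aldh1a7 stood at -2.42 (adjusted p = 0.017), Cyp26b1 at -2.19 (adjusted p = 0.018) and Aldh1a2 at -2.11 (adjusted p = 0.015). Crabp1 stood at -3.42 (adjusted p = 0.012), from 1 count in those libraries against 50 in sections. The genotype by region interaction was called for 0.328% of genes and for 0 of the 6 members tested, with 1, Aldh1a7, at an unadjusted p under 0.05, and DESeq2 also called 0.

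Levels can be put in order by group. Aldh1a1 averaged 9118 ± 1556 CPM in knockout Leydig-targeted libraries, 5736 ± 812 in knockout sections, 4341 ± 2189 in wild-type Leydig-targeted libraries and 983 ± 264 in wild-type sections (SD, n = 3 each), and knockout sections overlapped wild-type Leydig-targeted libraries. Aldh1a7 averaged 971 ± 533 CPM in knockout Leydig-targeted libraries and 424 ± 13.2 in knockout sections, and 37.0 ± 37.2 in wild-type Leydig-targeted libraries and 71.0 ± 25.4 in wild-type sections, where the last pair overlapped. Cyp26b1 was highest in knockout sections, 338 ± 95.3 CPM, and the other 3 groups, with means of 55.5 to 84.2 CPM, overlapped. Rdh11 averaged 21.0 ± 19.2 CPM in knockout and 191 ± 56.6 in wild-type Leydig-targeted libraries, and 16.2 ± 2.12 in knockout and 135 ± 22.2 in wild-type sections, and the regions overlapped within each genotype.

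The genes whose 4 group means ran most like those of a member were found among the other 5181 genes tested, by the root mean square difference of centred log2 mean CPM. For Aldh1a1 they included Slc25a23, a mitochondrial carrier (0.09), and Fads6 (0.10). For Aldh1a7 they were Zfyve21 (0.11), Chuk, a kinase of the NF-κB pathway (0.20), and Tkt, transketolase (0.21). For Cyp26b1 they were Rnf128 (0.11), Cldn11, the claudin of Sertoli cell junctions (0.12), and Clcn5 (0.13). For Rdh11 they were 4933427D14Rik (0.09), Khdrbs3 (0.10) and Rnf138 (0.11). Aldh1a2 was nearest to Caprin1, Ppp2r2d and Arrdc3, and Crabp1 to BC004004, Aida and Rcc2. Likeness over 4 points that share library depth is a description only. Some of these means rest on very few counts. Zfyve21, Chuk and Tkt each averaged 6.07 CPM in wild-type Leydig-targeted libraries, where the group floor of 3 counts is 34.2 CPM. Among members, Crabp1 and Cyp26b1 were the closest pair (0.44) and Aldh1a7 and Rdh11 the farthest apart (3.39).

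Other genes of the pathway were followed from a list of 55 symbols, of which 46 were in the table and 8 passed the filter. In knockout sections 5 of these 8 were called higher and 3 lower, where 22.6% of all genes tested were called higher and 39.1% lower. Their median log2 fold change of 1.51, against -0.35 for all genes tested, is only a description, since these 8 are the genes of the list that passed the filter. Among oxidoreductases, Adh1, an alcohol dehydrogenase that can oxidise retinol, was higher by 2.64 ± 0.48 (edgeR, adjusted p = 1.9e-07), Dhrs7, a short-chain dehydrogenase, by 2.02 ± 0.48 (adjusted p = 6.3e-05) and Dhrs3, which reduces retinal to retinol, by 1.56 ± 0.46 (adjusted p = 0.0018). The libraries of the genotypes did not overlap for any of these 3 genes, but how often that held among all genes tested was not counted. Scaled to Leydig marker counts, 0 of the 8 were called higher by edgeR. That scaling called 4181 of the 5182 genes tested in sections, with only 0.239% of those calls higher. The signs of Dhrs7 (-0.30), Dhrs3 (-0.79) and Nrip1 (-0.90) turned, while Adh1 (0.28) stayed above 0 without a call.

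Of 7 genes of storage and release only Lrat and Lipe passed the filter, and both were called lower. Lrat, which esterifies retinol for storage, had 6.31, 5.10 and 28.0 CPM in knockout sections, against 137.7, 68.9 and 165.6 CPM in wild-type sections. There was no overlap, and the log2 fold change was -3.81 ± 0.54 (edgeR, adjusted p = 8.5e-12). Lipe, the hormone-sensitive lipase that can release retinol from its esters, had 12.6, 5.10 and 15.5 CPM in knockout sections, against 47.7, 38.3 and 72.7 CPM in wild-type sections (-2.73 ± 0.60, adjusted p = 1.6e-05). Of the corepressors of the receptors, Nrip1 was higher by 1.45 ± 0.47 (adjusted p = 0.0044) and Ncor1 lower, at -1.11 ± 0.44 (adjusted p = 0.022). The Nrip1 call was lost in DESeq2 (adjusted p = 0.12), and the Ncor1 call with library size alone (-0.53, adjusted p = 0.20) and for 6 of the 12 libraries when left out. Lrat, Lipe and Ncor1 were also called lower when scaled to Leydig marker counts, a scaling under which most genes tested were called lower. The fit of the 6 section libraries tested 14 of these genes and called 9 higher and 3 lower, where 30.2% of its 7907 genes were called higher and 36% lower. Those added to the higher calls included Rarres1 (2.52 ± 0.53) and the receptors Rara (1.65 ± 0.43) and Rxra (1.63 ± 0.44).

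**Figure D5:**
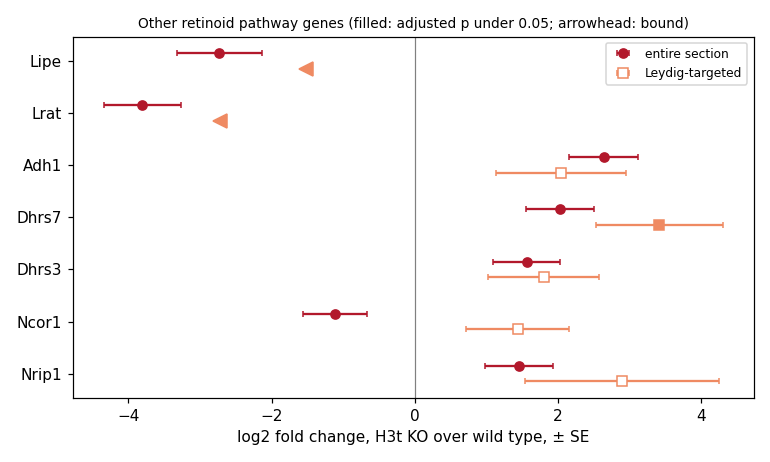
Log2 fold change of knockout over wild type with SE for 7 of the 8 other pathway genes tested, in entire sections (red circles) and Leydig-targeted libraries (orange squares). Filled symbols have an adjusted p under 0.05, and arrowheads give the bound for genes with 0 counts in knockout Leydig-targeted libraries. Dhrs7 is filled and right of 0 in both regions, and Lrat and Lipe are left of 0 in both.

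In Leydig-targeted libraries 2 of the 8 were called higher and 2 lower in knockouts, where 7.55% of all genes tested were called higher and 20.9% lower, and without the shallowest library 1 was called higher and 2 lower. Dhrs7 had 17, 25 and 5 counts in knockouts, against 2, 0 and 1 in wild type (3.41 ± 0.88, edgeR adjusted p = 0.0013, and 3.55 with 0.0021 without the shallowest library). Scaled to Leydig marker counts, Dhrs7 was not called (1.67, adjusted p = 0.17), and 0 of the 8 were called higher by edgeR. Of the 2349 genes called there under that scaling, only 1.15% were higher. Lrat had 0 counts in every knockout library and 16, 0 and 0 in wild type, at least 6.56-fold lower with a group floor of 3 counts (adjusted p = 5.2e-04). All of its counts came from wild-type replicate 1, without which no difference can be had. Lipe had 0 counts in every knockout library and 2, 2 and 3 in wild type, at least 2.87-fold lower (adjusted p = 0.014, and 0.045 without the shallowest library, with the call lost for 2 of the 12 libraries when left out). Between regions, 0 of the 8 were called in knockouts by edgeR, with 0 at an unadjusted p under 0.05, and 1 in wild type, Ncor1, lower in Leydig-targeted libraries (-2.45 ± 0.64, adjusted p = 0.0030).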

How the data were processed

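PIC libraries of mouse testis sections were compared in 4 groups of 3. The authors deposited raw counts per gene, with no normalisation. The genome build GRCm38 and the tools featureCounts, HISAT2, Trim Galore and UMI-tools are named, per the submitters' processing notes. Their versions, the strand setting and the treatment of reads matching several genes are not stated there. All 12 count columns were mapped to a group and 0 were left unmapped. CPM scales each count to the library total.

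All 12 libraries were fitted with edgeR 4.0.16 in R 4.3.3 (robust quasi-likelihood test, TMM scaling, expression filter with a minimum count of 10, 1 coefficient per group), and p-values were adjusted over the 5182 genes kept. The SE is the log2 fold change divided by the square root of F. The procedure was tested on simulated data with a single dispersion for all genes and equal numbers of genes raised and lowered. That setting does not test the scaling under a shifted median such as that in sections. Alternatives were DESeq2 1.42.0, no filter, library size alone, scaling to Leydig marker counts, the replicate number as a block, the 6 libraries compared alone, and each library left out. Leaving out libraries with the filter rerun, the shares with libraries left out, the steroid-gene base and the alternatives for other pathway genes were chosen after seeing the data. Floors are 3 counts over a group, and intervals are exact 95% intervals. The depth of 5947 to 54882 counts in Leydig-targeted libraries limits calls there to large differences or well-counted genes.

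All 9 members are named. Other pathway genes are named where called, at most 4 per role, with genes called only in the section-only fit added after their values were seen. The 3 genes nearest in group means are named for each member tested. Some genes that these rules name are not reported here, though they stay in the fits and counts. Members and lists were chosen with earlier results of these data known. Knockout and wild-type sections with the same number had correlated deviations from the mean of their group (r across genes 0.243, 0.132 and 0.194), so the numbers were taken to pair sections. Other same-numbered pairs had r of -0.107 to 0.056 and were not taken as pairs. Positions are from the GENCODE annotation of GRCm38, and promoter windows from RefSeq on GRCm38.p6.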

Additional observations from a re-analysis of the deposited data

How the results depend on the processing

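Leydig-targeted libraries are shallow, so small or low-count differences there were not detectable. The labels give neither animals per group nor the knockouts' age. With 3 libraries a group, exact tests cannot go below p = 0.1.

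Counts of genes called moved with the choices, and the cause was not tested. The number of genes tested moved too, from 5182 in the main fit to 26389 with no filter and 7907 in the section-only fit. Ranges with a library left out, here and below, include runs with the filter rerun. In sections (3194) the counts called were 7055 with no filter, 5238 in the 6-library fit and 1384 to 5180 with a library left out. With the genes of the main fit kept, that range was 2772 to 3438. In knockout over wild-type Leydig-targeted libraries (1476) they were 825 with no filter, 2349 scaled to Leydig markers, 173 in the 6-library fit and 588 to 1949 with a library left out. Between regions in knockouts (282) they were 498 scaled to Leydig markers, 468 in the 6-library fit and 85 to 949 with a library left out. Between regions in wild type (809) they were 1602 with no filter, 3028 scaled to Leydig markers, 346 in the 6-library fit and 267 to 1419 with a library left out. The interaction (17) gave 53 in DESeq2, 7 with no filter, 61 with library size alone and 6 to 116 with a library left out. With the genes of the main fit kept, the ranges after that of sections were 592 to 1501, 119 to 572, 382 to 867 and 7 to 78 in the same order.

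The replicate block changed no member's call, and moved the count of interaction calls to 9.

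Members called in knockout over wild-type Leydig-targeted libraries (3) were 1 in the 6-library fit and 1 to 3 with a library left out. Between regions they were 0 to 2 in knockouts (1) with a library left out, and in wild type (0) 1 in DESeq2, 1 with library size alone, 4 scaled to Leydig markers, 1 in the 6-library fit and 0 to 1 with a library left out.

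Scaled to Leydig markers, signs turned in sections for Crabp1 (-1.90), Aldh1a7 (-0.31), Aldh1a1 (-0.41) and Cyp26b1 (-0.97), in knockout over wild-type Leydig-targeted libraries for Crabp1 (-1.11), Aldh1a1 (-0.54) and Cyp26b1 (-1.48), between regions for Aldh1a1 (-0.17 in knockouts, -0.034 in wild type) and Rdh11 (-0.014 in knockouts, -1.34 in wild type), and in the interaction for Aldh1a2 (0.43). With no filter Aldh1a1 turned to -0.068 between regions in knockouts and Rdh11 to -0.71 in wild type, where the replicate block gave Rdh11 -0.007. Crabp1's interaction was -0.30 in DESeq2, -0.31 with library size alone and -0.001 with the replicate block.

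With a library left out, log2 fold changes in knockout over wild-type Leydig-targeted libraries ran from -0.89 to 4.81 for Crabp1, -2.51 to 0.14 for Aldh1a2 and -0.54 to 1.06 for Cyp26b1. Between regions they ran from -0.15 to 0.50 for Aldh1a1 and -0.23 to 0.69 for Rdh11 in knockouts, and -1.15 to 0.51 for Rdh11 in wild type. Interactions ran from -1.65 to 4.37 for Crabp1, -1.64 to 0.86 for Aldh1a2 and -0.27 to 1.64 for Rdh11.

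The share of higher calls was 36.6% in sections (33.5% in DESeq2, 52.2% with library size alone, 0.239% scaled to Leydig markers). In knockout over wild-type Leydig-targeted libraries it was 26.5% (23.6%, 35.1% and 1.15% in the same order), between regions 35.1% in knockouts (52.2%, 52.6% and 6.63%) and 20.6% in wild type (34.4%, 57.0% and 1.88%). As a percent of steroid gene counts alone, a base chosen after seeing the data, Aldh1a1 differed by -0.432 points (knockout minus wild-type sections), -20.1 (knockout minus wild-type Leydig-targeted), -4.63 (Leydig-targeted minus section, knockout) and 15.0 (the same, wild type). Both -20.1 and 15.0 rest largely on wild-type Leydig-targeted replicate 3, where 40 Aldh1a1 counts stood against 48 steroid gene counts (83.3%). Replicates 1 and 2 of that group stood at 29.4% and 27.0%.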

Other observations

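Genes of the pathway list that were too low for the filter still had counts to describe, and those named here were chosen after their values were seen. Stra8, the gene that retinoic acid induces at meiotic entry, had 24, 8 and 11 counts in knockout sections and 3, 8 and 4 in wild-type sections. Its CPM was 50.5, 20.4 and 34.2 in knockout sections, against 5.30, 15.3 and 16.2 in wild-type sections, with no overlap, and with no filter on low counts the log2 fold change of 1.32 ± 0.59 was not called (edgeR, adjusted p = 0.083). Rec8, a meiotic cohesin gene on the same list of germ cell targets of retinoic acid, had 0, 1 and 2 counts in knockout sections and 6, 6 and 2 in wild-type sections, lower by library without overlap and also not called (-2.06 ± 0.91, edgeR with no filter, adjusted p = 0.079). Stra8 had 0 counts in all Leydig-targeted libraries, which allows up to 27.8 CPM in knockouts and 34.2 CPM in wild type. Spermatogonia markers, 8 of 8 in the table, held 0.0606% to 0.0745% of counts in knockout sections, with Gfra1 at 0. In wild-type sections they held 0.0461% to 0.0513%. Their part in the Stra8 values was not tested.

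Bco1, which cleaves beta-carotene to retinal, had 0 counts in knockout sections and 26 in wild-type sections. With a group floor of 3 counts it was at least 7.71-fold lower, and with no filter it was called lower (edgeR, adjusted p = 4.8e-06). Rarres1, a gene named for its response to retinoid, had 10, 7 and 1 counts in knockout Leydig-targeted libraries and 0, 0 and 0 in wild type, at least 4.88-fold higher (adjusted p = 0.0046 with no filter, where 3.13% of 26389 genes were called).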
